A study of Mus musculus with 11 samples.

Results

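The salt-inducible kinases and the CREB pathway were examined in thymocytes through 10 genes of the 54418 in the count table: *Sik1*, *Sik2*, *Sik3*, *Crtc1*, *Crtc2*, *Crtc3*, *Creb1*, *Crem*, *Pde4b* and *Pde4d*. The set was chosen by pathway, after the difference of *Sik1* between mutant and wt mice had been seen. The values of the 10 genes against wt mice are therefore given as a description without p-values. Counts of those past a threshold against wt mice are also given, and nothing is read from them. All 10 were found by symbol and all 10 passed the filter on low counts in each comparison. Thymocytes are T cells in development, and their RNA came from mice aged 8 to 12 weeks, of which 4 were wt, 4 were *Zmat3*-/- and 3 were *Puma*-/-*p21*-/-*Zmat3*-/- (TKO). The deletions are carried by every cell of the body, on the C57BL/6-WEHI background, and the TKO mice are labelled as carrying, beside that of *Zmat3*, deletions of *Puma* (gene *Bbc3*) and *p21* (gene *Cdkn1a*). ZMAT3 is an RNA-binding protein, PUMA a BH3-only initiator of apoptosis and p21 an inhibitor of the cell cycle, and all are encoded by targets of TRP53. The thymocytes were not described as sorted, so the values are those of a mixture of stages.

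Salt-inducible kinases belong to the AMPK family and are switched on by the kinase LKB1. They phosphorylate the CRTC coactivators, which are then held in the cytoplasm by 14-3-3 proteins. When a Gs-coupled receptor raises cAMP, protein kinase A (PKA) inhibits the salt-inducible kinases, the phosphatase calcineurin can strip the phosphate from CRTC proteins, and CRTC enters the nucleus to work with CREB at cAMP response elements. PDE4 enzymes end the signal by breaking down cAMP. *Sik1* is itself a known CREB target, as is the short inhibitory form of *Crem* named ICER. In T cells cAMP is known as a brake on activation.

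The libraries held 17669715 to 80207003 estimated counts. Values are counts scaled to library size (CPM, with TMM factors), or CPM per kb of exon where genes are set against each other. The mean level of *Zmat3* fell short of wt mice (18.9 ± 9.12 CPM, SD, n = 4) in all mutants, at 6.07 ± 0.691 CPM for the *Zmat3*-/- (SD, n = 4) and 8.03 ± 0.238 CPM for the TKO group (SD, n = 3). Its adjusted p was 0.0786 in *Zmat3*-/- and 0.371 in TKO mice by edgeR, so the drop did not pass the test in either comparison as fitted here. It passed in 7 of 19 alternative fits in *Zmat3*-/- and in 2 of 18 in TKO against wt mice. *Bbc3* was at 18.6 ± 1.45 CPM in wt (SD, n = 4) and 13.7 ± 1.26 CPM in TKO mice (SD, n = 3), 0.719-fold with an adjusted p of 0.399 by edgeR. *Cdkn1a* was at 6.57 ± 3.28 CPM in wt (SD, n = 4) and 3.13 ± 0.564 CPM in TKO mice (SD, n = 3), 0.468-fold with an adjusted p of 0.443 by edgeR. Each targeted gene was lower in every TKO mouse than in every wt mouse, yet RNA of all 3 was still counted in TKO mice, so these levels are a weak check of the labels. The summed level of 12 thymocyte markers was 14863 to 21118 CPM, and 0 of the 12 passed an adjusted p of 0.05 in edgeR in any comparison. At an unadjusted p under 0.05, 3 were lower in *Zmat3*-/- and 1 was lower in TKO against wt mice, beside 16.1% and 10.3% of all genes in either direction. *Cd3e*, *Cd8a*, *Rag2* and *Thy1*, 4 of the 12, were lower in every *Zmat3*-/- mouse than in every wt mouse, beside 6.75% of all genes. In TKO mice 1 of the 12 lay below every wt mouse, beside 5.15% of all genes, and 1 above, beside 6.95%. None of the B cell (5), myeloid (8), erythroid (6) or thymic stroma (9) markers passed either (at most 3 of 25 tested at an unadjusted p under 0.05), although the erythroid sum ran from 880 to 8558 CPM among the wt mice. The wt mice were less alike than the mutants, with a mean correlation of 0.919 to 0.938 to their own group across genes, against 0.974 to 0.986. They formed pairs that followed *Xist*, the RNA that silences an X chromosome. Its level was high (505 to 1485 CPM) for mice 1 and 2 of wt, mice 1 and 2 of *Zmat3*-/- and mouse 1 of TKO, and low (0.806 to 2.54 CPM) for the remaining 6. Nothing in the labels gives the sex or batch of a mouse.

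*Sik1* was the gene of the set that set the mutants apart from wt mice. It had 13.2, 16.8, 16.5 and 19.2 CPM in wt mice 1 to 4. In *Zmat3*-/- mice 1 to 4 it had 115, 128, 110 and 136 CPM. In TKO mice 1 to 3 it had 147, 131 and 153 CPM. Every mutant mouse was far above every wt mouse, and the ranges of the mutant groups overlapped each other. In *Zmat3*-/- against wt mice this made a log2FC of 2.90 (standard error 0.143, 95% interval 2.57 to 3.23), which is 7.47-fold. In TKO against wt mice it made a log2FC of 3.09 (standard error 0.156, interval 2.73 to 3.45), which is 8.50-fold. By absolute log2FC, *Sik1* stood 20th of 13494 genes tested in the first comparison and 30th of 13260 in the second. The comparisons share the wt mice, so the values stand side by side and are not independent of each other. In bulk RNA, more cells that transcribe *Sik1* and more *Sik1* RNA per cell cannot be told apart.

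**Figure D1:**
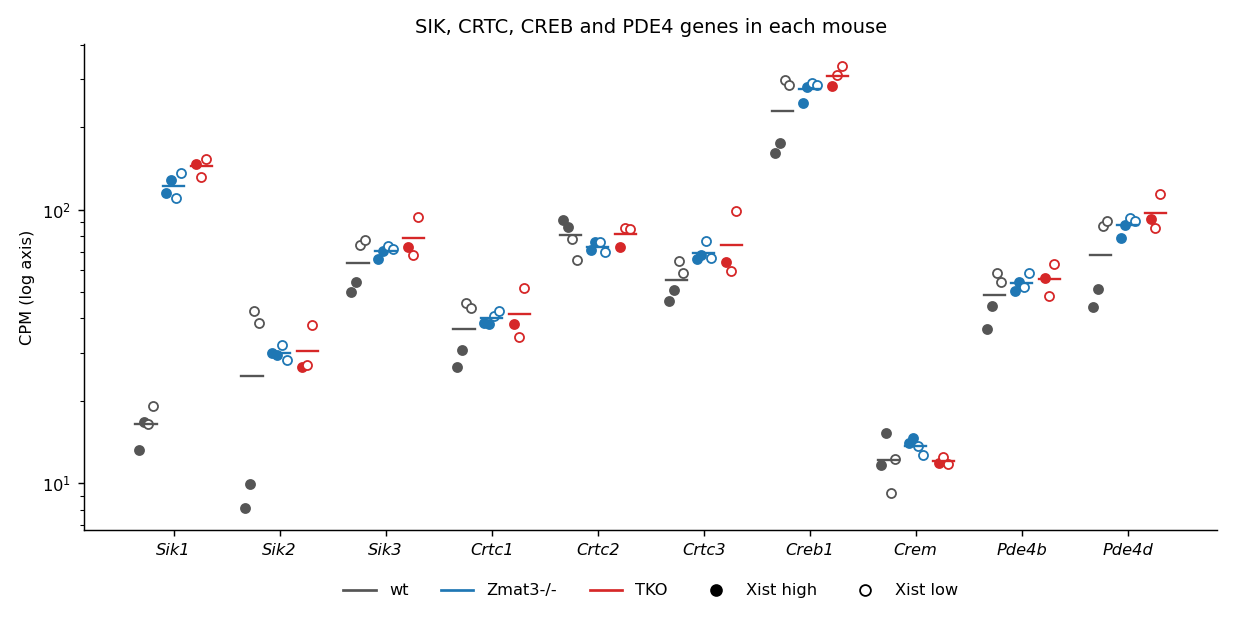
Level of each gene in each mouse, in CPM on a log axis; each point is a mouse, filled where *Xist* was high and open where it was low, and each bar is the mean of the group (wt grey, n = 4; *Zmat3*-/- blue, n = 4; TKO red, n = 3). *Sik1* lies at 13.2 to 19.2 CPM in wt and at 110 to 153 CPM in mutant mice, while the filled and open wt points of *Sik2*, *Creb1* and *Pde4d* lie apart.

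The thresholds for a call were an adjusted p under 0.05 and an absolute log2FC above 1.5. *Sik1* was the only gene of the set past them in either comparison with wt mice, 1 of 10 in each. Over all genes 0.241% were called in TKO and 0.319% in *Zmat3*-/- against wt mice. At an adjusted p under 0.05 with any log2FC the count was again 1 of 10 in each, beside 0.294% and 0.763% of all genes. As *Sik1* was in view when the set was drawn up, nothing is read from these counts.

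Heat shock genes, taken as markers of handling, stood beside *Sik1*. Their summed level over 6 genes was 552 to 834 CPM in wt, 926 to 1633 CPM in *Zmat3*-/- and 911 to 1487 CPM in TKO mice, with no overlap between wt and mutant mice. By edgeR 0 of the 6 genes passed an adjusted p of 0.05, and 4 in *Zmat3*-/- and 2 in TKO mice were higher at an unadjusted p under 0.05. At that threshold, in either direction, stood 16.1% of all genes in *Zmat3*-/- and 10.3% in TKO against wt mice. Of the 6, 3 lay above the wt range in every *Zmat3*-/- mouse and 1 did in every TKO mouse, beside 7.31% and 6.95% of all genes. Mitochondrial genes took 4.25% to 6.31% of the counts of wt mice, 6.54% to 14.6% of those of *Zmat3*-/- mice and 3.86% to 9.29% of those of TKO mice. Their part in the *Sik1* difference was not tested.

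*Sik1* (ENSMUSG00000024042.7) lies on chromosome 17 of GRCm38 from 31844250 to 31855804 on the minus strand, overlaps no other annotated gene and is 2.74 Mb beyond *Cdkn1a*, one of the genes deleted in TKO mice. The level of *Sik1* was also high in *Zmat3*-/- mice, whose *Cdkn1a* was at 6.54 ± 1.87 CPM (SD, n = 4) against 6.57 ± 3.28 CPM (SD, n = 4) in wt mice. Of 29 tested genes within 1 Mb of *Sik1*, 0 passed an adjusted p of 0.05 in *Zmat3*-/- against wt mice by edgeR and 5, all lower, had an unadjusted p under 0.05. This is beside 16.1% of all genes at that threshold. In TKO against wt mice 5 were higher and 4 lower at an unadjusted p under 0.05, which is 9 of 29 beside 10.3% of all genes, and 1 passed the adjusted p, the antisense transcript *AC165951.1*. It had a mean of 13.5 CPM in TKO mice and at most 1 count in any wt mouse. In TKO against *Zmat3*-/- mice 5 neighbours, all higher, had an unadjusted p under 0.05, beside 4.5% of all genes. Of these *AC165951.1* and *Dnah8*, a dynein heavy chain gene (log2FC 1.63, adjusted p = 4.70e-06), passed the adjusted p by edgeR. *AC165951.1* had at most 1 count in any *Zmat3*-/- mouse as well, so it met the filter on low counts through the TKO mice alone, had to differ once tested, and is given by its levels without a fold. Both were named after their values were seen. The median log2FC of the 29 neighbours was 0.06 in TKO and −0.04 in *Zmat3*-/- against wt mice. The part of the chromosomal neighbourhood in the level of *Sik1* in TKO mice was not tested.

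The other salt-inducible kinases did not share the pattern of *Sik1*. *Sik2* had 8.11 and 9.96 CPM in wt mice 1 and 2 but 42.5 and 38.4 CPM in wt mice 3 and 4. It had 28.2 to 31.9 CPM in *Zmat3*-/- mice. In TKO mice it had 26.6, 27.1 and 37.8 CPM. All mutant mice therefore lay inside the gap between the pairs of wt mice. Over all wt mice the log2FC was 0.24 in TKO (interval −1.12 to 1.61) and 0.27 in *Zmat3*-/- mice (interval −0.92 to 1.45). *Sik3* had 50.0, 54.4, 74.2 and 77.3 CPM in wt mice 1 to 4. Its range was 65.7 to 73.5 CPM in *Zmat3*-/- and 68.1 to 94.1 CPM in TKO mice, with log2FC of 0.14 and 0.24 against wt mice. *Sik2* (chromosome 9, 50892801 to 51009073, minus strand) shares 1429 exon bases with *Ppp2r1b* on the other strand, and the library kit keeps no strand. The level of *Ppp2r1b* differed from wt by log2FC of 0.09 in *Zmat3*-/- (adjusted p = 0.701) and 0.13 in TKO mice (adjusted p = 0.721) by edgeR.

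Per kb of exon, *Sik3* had the highest RNA level of the salt-inducible kinases in wt thymocytes and *Sik1* in mutant thymocytes. Exon length was the union over a gene's annotated transcripts, not that of the transcripts expressed, and the shares are of RNA, not protein. *Sik1* made up 26.3 ± 5.34% (SD, n = 4) of the CPM per kb of the 3 kinases in wt mice. Its share was 69.0 ± 2.41% (SD, n = 4) in *Zmat3*-/- and 70.9 ± 2.58% (SD, n = 3) in TKO mice. *Sik3* went from a share of 55.3 ± 4.83% in wt to 21.9 ± 1.49% and 21.1 ± 1.64% in the mutants. *Sik2* went from 18.4 ± 9.80% to 9.10 ± 0.995% and 8.01 ± 0.970%. The summed level of the 3 kinases was 12.7 ± 3.72 CPM per kb (SD, n = 4) in wt, 34.5 ± 2.25 (SD, n = 4) in *Zmat3*-/- and 39.7 ± 4.08 (SD, n = 3) in TKO mice.

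**Figure D2:**
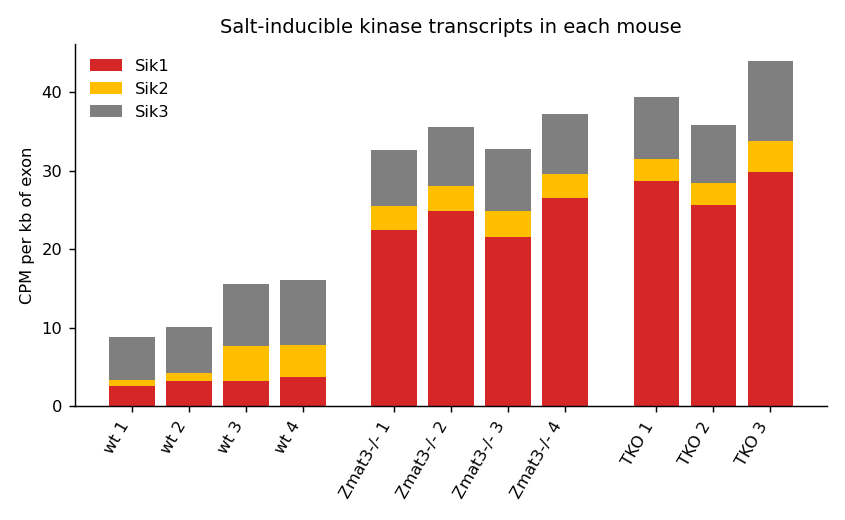
CPM per kb of exon of *Sik1* (red), *Sik2* (yellow) and *Sik3* (grey), stacked for each of the 11 mice. The red part is 2.58 to 3.74 CPM per kb in wt mice and 21.5 to 29.8 in mutant mice, and the yellow part is smaller in wt mice 1 and 2 than in wt mice 3 and 4.

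The windows below run from 250 bases before to 50 bases after a gene's start and come from RefSeq (GRCm38.p6). They are shown for *Sik2* and *Sik3* because both hold the short form of the cAMP response element, TGACG or its complement CGTCA, which is in capitals. The *Sik2* window is chr9:51009024-51009323 on the minus strand and the *Sik3* window chr9:46012570-46012869 on the plus strand.
Sik2: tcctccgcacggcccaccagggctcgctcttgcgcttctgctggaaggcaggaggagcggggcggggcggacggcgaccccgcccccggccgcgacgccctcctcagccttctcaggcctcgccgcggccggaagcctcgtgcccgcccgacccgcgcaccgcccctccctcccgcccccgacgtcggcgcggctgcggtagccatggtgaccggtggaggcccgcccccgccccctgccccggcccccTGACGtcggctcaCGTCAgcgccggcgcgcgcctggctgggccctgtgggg
Sik3: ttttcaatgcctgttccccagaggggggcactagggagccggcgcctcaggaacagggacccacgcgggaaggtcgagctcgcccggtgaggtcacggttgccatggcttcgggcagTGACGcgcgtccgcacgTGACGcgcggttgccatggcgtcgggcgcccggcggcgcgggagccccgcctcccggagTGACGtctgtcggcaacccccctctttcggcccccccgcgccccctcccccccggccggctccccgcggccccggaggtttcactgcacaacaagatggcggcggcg
In *Sik2* both matches lie at the start of the transcript and in *Sik3* the first match begins at −133 counted from it. The full element TGACGTCA was in 0 of the 10 windows found for 7 of the 10 genes, and the short form was in 3, which belong to *Sik2*, *Sik3* and *Pde4b*. Of all 32851 windows of this length, 1.79% held the full element and 20.8% the short form, both strands being searched. A match describes letters and is no evidence of binding. No window was found for *Sik1*, *Crtc2* and *Crem*.

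The CRTC coactivators, which carry the cAMP signal to CREB, had smaller differences from wt mice. *Crtc2*, the coactivator known best from liver, was the highest of them per kb, with 68.8 ± 6.77% of the family sum in wt, 62.7 ± 1.12% in *Zmat3*-/- and 64.1 ± 5.55% in TKO mice (SD, n = 4, 4 and 3). It had 91.9, 86.7, 78.1 and 65.6 CPM in wt mice 1 to 4, 69.9 to 76.3 CPM in *Zmat3*-/- and 72.8 to 85.6 CPM in TKO mice. Its log2FC was −0.13 in *Zmat3*-/- (interval −0.38 to 0.12) and −0.03 in TKO mice (interval −0.37 to 0.31). *Crtc1* ranged from 26.5 to 45.6 CPM among wt, 38.3 to 42.6 CPM among *Zmat3*-/- and 34.1 to 51.8 CPM among TKO mice, ranges that overlapped throughout. *Crtc3* had 46.3, 50.7, 64.6 and 58.7 CPM in wt mice 1 to 4. It had 65.9, 68.2, 76.7 and 66.7 CPM in *Zmat3*-/- mice 1 to 4. Every *Zmat3*-/- mouse was thus above every wt mouse, at a log2FC of 0.34 (interval 0.04 to 0.63). In TKO mice *Crtc3* had 64.1, 59.6 and 99.0 CPM, which overlapped the wt range. *Sik1* and *Crtc3* made 2 of 10 genes above the wt range in every *Zmat3*-/- mouse, beside 7.31% of all genes, and *Sik1* was the 1 of 10 in TKO mice, beside 6.95%. Both counts include *Sik1*, whose difference led to the set, so nothing is read from them. The summed CRTC level was 28.6 ± 1.80 CPM per kb (SD, n = 4) in wt, 28.5 ± 1.21 (SD, n = 4) in *Zmat3*-/- and 31.0 ± 3.98 (SD, n = 3) in TKO mice.

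*Creb1* encodes CREB itself. It had 160, 176, 298 and 286 CPM in wt mice 1 to 4. It had 245, 279, 290 and 284 CPM in *Zmat3*-/- mice 1 to 4. In TKO mice 1 to 3 it had 283, 309 and 335 CPM. The mutants lay near wt mice 3 and 4 and above wt mice 1 and 2. The log2FC was 0.26 in *Zmat3*-/- (interval −0.25 to 0.77) and 0.38 in TKO mice (interval −0.21 to 0.97). *Crem* encodes activators and the repressor ICER from one locus with 39 annotated transcripts, and the deposited values are sums over the gene, so ICER was not separated. *Crem* had 11.7, 15.3, 9.21 and 12.2 CPM in wt mice 1 to 4. It had 12.7 to 14.6 CPM in *Zmat3*-/- mice. In TKO mice 1 to 3 it had 11.8, 12.5 and 11.7 CPM. Both mutant groups lay within the wt range, and every TKO mouse was below every *Zmat3*-/- mouse. *Crem* shares 472 exon bases with *Gm6225* on the other strand, which was at 2.02 to 2.94 CPM on average in the 3 groups.

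*Pde4b* and *Pde4d* encode cAMP phosphodiesterases. *Pde4d* had 44.1, 51.1, 87.0 and 91.1 CPM in wt mice 1 to 4. Its range was 78.4 to 93.2 CPM in *Zmat3*-/- and 85.3 to 114 CPM in TKO mice. Again wt mice 1 and 2 lay below all mutants and wt mice 3 and 4 among them. *Pde4b* had 36.7, 44.6, 58.6 and 54.5 CPM in wt mice 1 to 4, 50.5 to 58.6 CPM in *Zmat3*-/- and 48.1 to 63.0 CPM in TKO mice. Against wt mice the log2FC of *Pde4d* was 0.36 in *Zmat3*-/- (interval −0.20 to 0.92) and 0.46 in TKO mice (interval −0.19 to 1.10), and that of *Pde4b* was 0.15 in both.

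**Figure D3:**
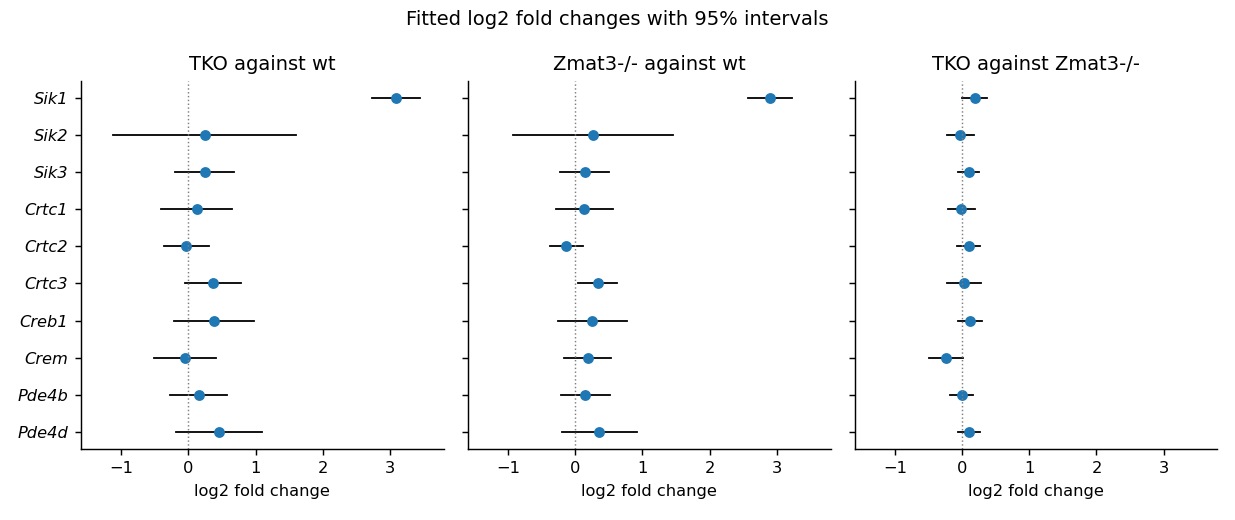
Fitted log2 fold change of each gene (points) with its 95% interval (lines) in TKO against wt mice (3 and 4 mice), *Zmat3*-/- against wt mice (4 and 4) and TKO against *Zmat3*-/- mice (3 and 4). *Sik1* lies at 3.09 and 2.90 against wt mice and at 0.19 between the mutants, and the intervals of *Sik2* are the widest of the set against wt mice.

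The pairs of wt mice differed in most genes, in the set as elsewhere. In 7 of the 10, *Sik2*, *Sik3*, *Crtc1*, *Crtc3*, *Creb1*, *Pde4b* and *Pde4d*, wt mice 3 and 4 were both above wt mice 1 and 2, as in 38% of the 13494 genes tested. In *Crtc2* both were below, as in 43.7% of those genes, and in *Sik1* and *Crem* the pairs overlapped. Other values split along the same pairs. The libraries of wt mice 1 and 2 held 34272640 and 39510054 counts and those of wt mice 3 and 4 held 22375732 and 23337162. The summed level of thymic stroma markers was 258 and 241 CPM in wt mice 1 and 2 but 157 and 168 CPM in wt mice 3 and 4. B cell markers were at 83.9 and 109 against 50.9 and 61.2 CPM, myeloid markers at 196 and 243 against 158 and 137 CPM, and heat shock genes at 834 and 827 against 552 and 583 CPM, in the same order. The erythroid sum was lower in the first pair, at 1079 and 880 against 8558 and 2172 CPM. Mitochondrial genes took 5.38% and 6.31% against 4.45% and 4.25% of the counts. *Rag1*, which encodes a recombinase of antigen receptor genes and was named after its values were seen, was at 1603 and 2243 against 5270 and 4939 CPM, and *Zmat3* at 9.88 and 12.2 against 26.8 and 26.8 CPM. The thymocyte markers did not move one way. Like *Rag1*, *Cd4*, *Tcf7* and *Bcl11b* were higher in wt mice 3 and 4 than in wt mice 1 and 2. *Cd3e*, *Cd8b1*, *Dntt*, *Ptcra*, *Lck* and *Thy1* were lower there, and *Cd8a* and *Rag2* overlapped. The part of these differences in the values of the set was not tested. The log2 ratio of the pair means was 2.16 for *Sik2*, 0.90 for *Pde4d* and 0.80 for *Creb1*. The same ratio between *Zmat3*-/- mice 3 and 4 and *Zmat3*-/- mice 1 and 2 was 0.02, 0.15 and 0.13. Within the mice of high *Xist*, *Sik2* differed from wt by log2FC of 1.74 in *Zmat3*-/- and 1.58 in TKO mice, and within the mice of low *Xist* by −0.44 and −0.41. *Sik1* differed by 3.04 and 3.32 within the mice of high *Xist* and by 2.77 and 2.90 within those of low *Xist*. These fits hold 1 or 2 mice a group and were chosen after the pairs were seen. With a single TKO mouse of high *Xist*, that mouse is assumed to vary like the wt mice, and the values are a description.

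**Figure D4:**
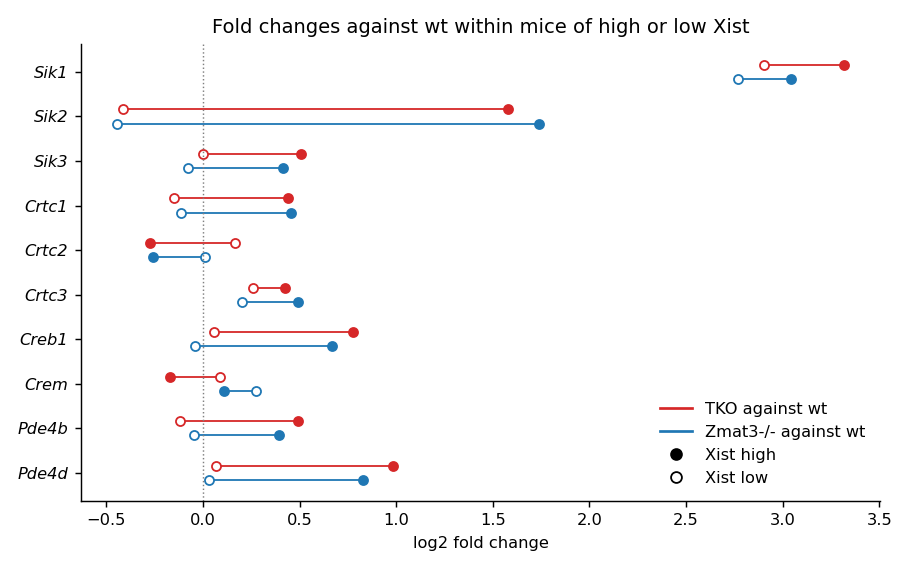
Log2 fold change of each gene against wt mice, fitted in mice of high *Xist* (filled) and of low *Xist* (open), for TKO (red) and *Zmat3*-/- mice (blue); lines join the 2 values of a gene and are no error bars. *Sik1* stays between 2.77 and 3.32, whereas *Sik2* runs from −0.44 to 1.74.

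Between the mutants, which were not the contrast on which *Sik1* was picked, the difference was small. *Sik1* had a log2FC of 0.19 in TKO against *Zmat3*-/- mice (standard error 0.084, interval 0.00 to 0.37, adjusted p = 0.983 by edgeR). Of the 10 genes 0 passed an adjusted p of 0.05 by edgeR or DESeq2, and 1, *Sik1*, had an unadjusted p under 0.05 by edgeR. Over all 13124 genes tested, 4.5% had an unadjusted p under 0.05, 0.122% were called and 0.221% passed the adjusted p alone. The log2FC of *Crem* was −0.24 (interval −0.50 to 0.01, adjusted p = 0.983 by edgeR). It was the 1 of 10 genes with every TKO mouse below every *Zmat3*-/- mouse, a pattern that 1.43% of all genes showed. The log2FC of the other 8 genes lay between −0.03 and 0.12, with intervals that stayed within −0.23 and 0.30.

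Set in order per kb, *Crtc2* (19.7 CPM per kb) and *Creb1* (16.7) led in wt mice with overlapping ranges. They were followed by *Sik3* (6.87), *Pde4d* (5.69), *Crtc3* (5.59), *Pde4b* (4.60), *Crtc1* (3.27), *Sik1* (3.20), *Sik2* (2.59) and *Crem* (2.05), each of which overlapped the next. *Sik1* led in *Zmat3*-/- mice with 23.8 CPM per kb, above *Creb1* without overlap. In TKO mice it led with 28.0 CPM per kb, again above *Creb1* without overlap. *Sik1* thus stood in place 8 of 10 in wt mice and in place 1 in both mutants, and *Crem* came last in all 3 groups.

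The rest of the pathway was read from 10 lists of 99 further genes, of which 80 were tested in each comparison. In TKO against wt mice 3 were called, all higher, and 4 passed the adjusted p alone, beside 0.241% and 0.294% of all genes. In *Zmat3*-/- against wt mice 4 were called, all higher, and 6 passed the adjusted p alone, beside 0.319% and 0.763% of all genes. Both of the latter counts include *Gpr3*, which met the filter on low counts through the mutant mice alone and supports neither count. In these fits no listed gene was lower at an adjusted p under 0.05 by edgeR, but with 1 surrogate variable 1 of 20 that passed was lower in TKO and 7 of 42 in *Zmat3*-/- mice. That fit passed 14% and 37.7% of all genes in the same order. At an unadjusted p under 0.05, 18 were higher and 3 lower in TKO and 23 higher and 3 lower in *Zmat3*-/- against wt mice, which is 21 and 26 of 80 beside 10.3% and 16.1% of all genes. The counts of higher genes again include *Gpr3*, which supports neither. In the fit blocked by replicate number 0 of the 80 passed in TKO and 1, *Fosb*, in *Zmat3*-/- mice by edgeR. DESeq2 called 6 in each comparison with wt mice. It passed 9 in TKO mice, beside 2.87% of all genes, and 18 in *Zmat3*-/- mice, beside 8.04%. Over all genes it called 0.777% for TKO and 0.912% for *Zmat3*-/- mice. Between TKO and *Zmat3*-/- mice 0 of the 80 passed by edgeR or DESeq2, and 3 higher and 1 lower had an unadjusted p under 0.05 by edgeR, beside 4.5% of all genes.

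Most of the listed genes that passed were CREB targets, 4 of 16 tested in each comparison with wt mice, beside 0.294% of all genes in TKO and 0.763% in *Zmat3*-/- mice. The list holds 22 targets and was drawn up with earlier results of these data known, so its counts, its median and the p-values of its genes are no independent evidence of a direction. At an unadjusted p under 0.05, 10 were higher and 1 lower in TKO and 12 higher and 1 lower in *Zmat3*-/- mice, beside 10.3% and 16.1% of all genes. Their median log2FC was 1.05 in TKO and 0.95 in *Zmat3*-/- against wt mice, where the median of all genes was −0.04 and −0.03. *Fosb*, a subunit of AP-1, had 3.25, 4.42, 2.07 and 1.96 CPM in wt mice 1 to 4. It had 43.4, 42.3, 23.2 and 46.5 CPM in *Zmat3*-/- and 52.4, 18.9 and 61.3 CPM in TKO mice. It rose by log2FC of 3.73 in *Zmat3*-/- (adjusted p = 0.00226) and 3.84 in TKO mice (adjusted p = 0.0146) by edgeR.
*Nr4a2* and *Nr4a1* encode orphan nuclear receptors. *Nr4a2* had 2.15 to 2.82 CPM in wt, 10.6 to 15.9 CPM in *Zmat3*-/- and 10.6 to 15.3 CPM in TKO mice. It rose by log2FC of 2.26 in *Zmat3*-/- (adjusted p = 0.00139) and 2.21 in TKO mice (adjusted p = 0.00859) by edgeR. *Nr4a1* had 76.7 to 112 CPM in wt, 167 to 220 CPM in *Zmat3*-/- and 206 to 230 CPM in TKO mice. It rose by log2FC of 1.13 (adjusted p = 0.0191) and 1.15 (adjusted p = 0.0354) by edgeR in the same order, short of the threshold for a call. *Dusp1*, a phosphatase of MAP kinases, had 32.6, 33.3, 15.8 and 14.3 CPM in wt mice 1 to 4. It had 105 to 123 CPM in *Zmat3*-/- and 107 to 154 CPM in TKO mice. It rose by log2FC of 2.28 (adjusted p = 0.0148) and 2.37 (adjusted p = 0.0350) by edgeR in the same order. All mutant mice were above all wt mice for each of these 4 genes.
In the blocked fit the adjusted p by edgeR in TKO mice was 0.156 for *Fosb*, 0.109 for *Nr4a2*, 0.119 for *Dusp1* and 0.187 for *Nr4a1*. It was 0.0133 in *Zmat3*-/- mice for *Fosb*, 0.0511 for *Nr4a2* and *Nr4a1* and 0.0613 for *Dusp1*. Without wt mouse 2, 3 or 4, 2 listed genes passed in TKO against wt mice, and without wt mouse 3 or 4, 3 passed in *Zmat3*-/- against wt mice. Without TKO mouse 1, 0 listed genes passed in TKO against wt mice, without TKO mouse 2 or 3 only 1 did, and without any one *Zmat3*-/- mouse 2 or 3 passed in *Zmat3*-/- against wt mice. The 4 genes are also known as early response genes of T cell receptor signalling. The heat shock sum given above was likewise higher in all mutants than in all wt mice, and its part was not tested.

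The remaining CREB targets included larger values that did not pass. *Fos* had log2FC of 3.23 (adjusted p = 0.121) in *Zmat3*-/- and 3.17 (adjusted p = 0.349) in TKO mice, and *Junb* 2.31 (adjusted p = 0.132) and 2.22 (adjusted p = 0.388), by edgeR. *Egr1* had log2FC of −0.34 (adjusted p = 0.150) and −0.32 (adjusted p = 0.435) by edgeR in the same order. These 3 genes were named after their values were seen. The other targets, among them the clock genes *Per1* and *Per2* and the G protein regulator *Rgs2*, had log2FC of 0.43 to 1.51 against wt mice, and the 3 named were likewise picked after their values were seen.

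The windows of *Dusp1*, *Fosb* and *Nr4a2*, the targets that were called, are shown for their elements, again in capitals. They lie at chr17:26508423-26508722, chr7:19309996-19310295 and chr2:57123954-57124253, all on the minus strand.
Dusp1: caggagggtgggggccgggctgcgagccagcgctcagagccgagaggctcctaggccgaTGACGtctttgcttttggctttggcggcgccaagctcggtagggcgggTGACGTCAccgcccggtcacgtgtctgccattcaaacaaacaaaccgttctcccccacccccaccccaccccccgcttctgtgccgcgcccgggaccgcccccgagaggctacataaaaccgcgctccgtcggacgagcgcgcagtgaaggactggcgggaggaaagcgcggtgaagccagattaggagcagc
Fosb: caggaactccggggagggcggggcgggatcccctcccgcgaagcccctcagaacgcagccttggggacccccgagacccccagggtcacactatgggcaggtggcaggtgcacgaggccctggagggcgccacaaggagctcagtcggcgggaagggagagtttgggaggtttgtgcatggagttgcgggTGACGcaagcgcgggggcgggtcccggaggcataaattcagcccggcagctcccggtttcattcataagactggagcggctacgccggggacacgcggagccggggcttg
Nr4a2: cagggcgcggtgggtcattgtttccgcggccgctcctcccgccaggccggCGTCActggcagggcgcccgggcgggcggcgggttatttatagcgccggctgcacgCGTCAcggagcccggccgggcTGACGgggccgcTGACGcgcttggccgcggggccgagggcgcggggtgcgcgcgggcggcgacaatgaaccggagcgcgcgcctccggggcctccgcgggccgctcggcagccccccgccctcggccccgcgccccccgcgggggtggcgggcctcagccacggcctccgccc
*Dusp1* holds the full element TGACGTCA, which begins at −143 counted from the start, and the short form further out. *Fosb* holds the short form once and *Nr4a2* holds 4. Of 18 CREB target genes with a window, 17 held the short form in at least 1 window, and 72% of their 25 windows did, beside 20.8% of all windows. The list was drawn up from genes known as CREB targets, so this share describes the list.

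**Figure D5:**
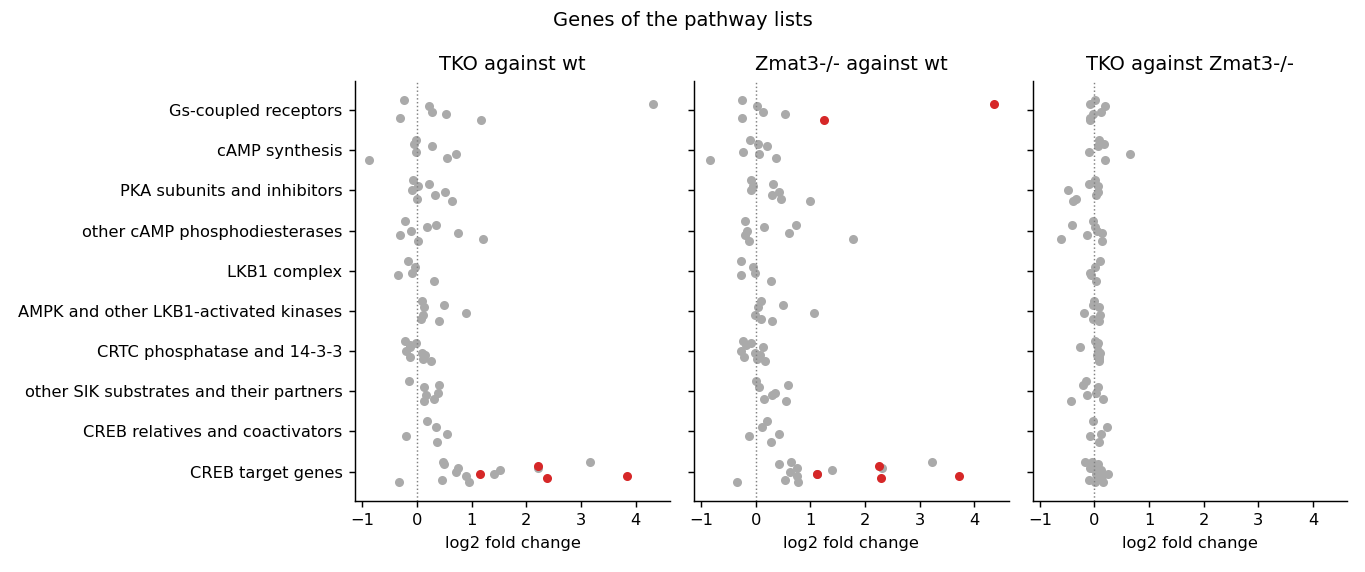
Log2 fold change of each tested gene of the 10 pathway lists (1 point a gene, spread vertically only for legibility) in the 3 comparisons; red points passed an adjusted p of 0.05 by edgeR. Red points appear among the CREB target genes against wt mice and, in *Zmat3*-/- mice, among the Gs-coupled receptors.

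Upstream of CREB, 7 Gs-coupled receptors were tested. *Gpr3*, a receptor that raises cAMP without an added ligand, was at 0.243, 0.149, 0 and 0 CPM in wt mice 1 to 4. It was at 1.95 to 2.73 CPM in *Zmat3*-/- and 2.12 to 2.34 CPM in TKO mice. *Gpr3* met the filter on low counts through the mutant mice alone, had to differ once tested, and is given by its levels without a fold against wt mice. It lay above the wt range in every mutant mouse. The TKO and *Zmat3*-/- mice differed by a log2FC of −0.07 (adjusted p = 0.985 by edgeR).

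In the other 8 lists 0 genes passed an adjusted p of 0.05 by edgeR in any comparison. At an unadjusted p under 0.05 there were 6 higher and 2 lower of 57 in TKO and 9 higher and 2 lower in *Zmat3*-/- against wt mice. These are 8 and 11 of 57, near the 10.3% and 16.1% of all genes at that threshold. They held the enzymes of cAMP synthesis (7 tested against wt mice), PKA subunits and inhibitors (8), other cAMP phosphodiesterases (8), the LKB1 complex (5) and AMPK and other LKB1-activated kinases (7). They also held calcineurin with the 14-3-3 proteins (10), other substrates of salt-inducible kinases with their partners (7) and the relatives and coactivators of CREB (5). Their median log2FC lay between −0.09 and 0.34 in TKO and between −0.05 and 0.31 in *Zmat3*-/- against wt mice. *Stk11*, which encodes LKB1, had 150 to 199 CPM in wt, 135 to 147 CPM in *Zmat3*-/- and 148 to 171 CPM in TKO mice. The coactivator *Ep300* showed the pairs of wt mice, with 78.1, 83.4, 209 and 209 CPM in wt mice 1 to 4 and 177 to 279 CPM in the mutants. *Stk11* and *Ep300* were named after their values were seen.

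The levels most like that of *Sik1* over the 11 mice, among 12956 genes tested in all comparisons, were those of *Dnajb9* (Pearson r of log2 CPM 0.996), *Tnfaip3* (0.992), *Trib1* (0.991), *Tob2* (0.985) and *Sgk1* (0.983). *Dnajb9* encodes a chaperone of the endoplasmic reticulum, *Tnfaip3* the inhibitor A20 of NF-kB, *Trib1* a pseudokinase, *Tob2* an antiproliferative protein and *Sgk1* a kinase induced by serum and glucocorticoids. *Dnajb9* had 18.7 to 22.7 CPM in wt and 51.8 to 68.4 CPM in mutant mice, and *Tnfaip3* 104 to 140 and 421 to 602 CPM. The libraries were pooled for sequencing and the mice fall into a low and a high level of *Sik1* by genotype, so r is given as a description without a p-value. The other genes of the set had r of −0.25 (*Crtc2*) to 0.68 (*Crtc3*) with *Sik1*.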

How the data were processed

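RNA from thymocytes of 11 mice was made into unstranded libraries and sequenced as paired ends. The authors quantified reads with Salmon on GRCm38.p6 with GENCODE vM25 and deposited estimated counts per gene, without normalization. The submitters' processing notes also name bcl2fastq and DESeq2 1.40.0. All 598598 values were whole, so rounding changed none. Of 54418 genes, 54166 had their Ensembl identifier in GENCODE M21, used for names, positions and exon lengths, and 252 were not.

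Genotypes, taken from the labels, entered pairwise fits in edgeR 4.0.16 under R 4.3.3, with TMM, two-sided quasi-likelihood test, Benjamini-Hochberg adjustment over all genes tested. A gene was tested if a number of mice equal to the smaller group reached 20 counts at the depth of the smallest library. Left out were *Xist*, rRNA, chromosome Y genes and immunoglobulin genes without a protein. No covariate was used: the study adjusted for sex and surrogate variables, but the labels give no sex and the number of surrogate variables was not given in the sources used here. The test was also run on simulated counts. These had a common dispersion for all genes and no pairs among the wt mice, so they do not show how it performs with such pairs. Alternatives used DESeq2 1.42.0, sva 3.50.0, other scalings and filters, all mice in one fit, a replicate block, the *Xist* level, and each mouse left out.

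The 10 genes and the lists, written from general knowledge, were chosen with earlier results of these data known. Named genes were the 10, the targeted genes, listed genes with an adjusted p under 0.05 (at most 5 a list), and the 5 genes most correlated with *Sik1*; 1 listed gene that falls under this rule is not reported here. Other genes were named after their values were seen. Mice are separate animals; p-values measure the spread between them.

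The replicate numbers come from the sample titles and denote different mice. Deviations of same-numbered mice from their group means correlated at 0.124, 0.247 and 0.408 between TKO and wt mice and at 0.370, 0.170, 0.286 and 0.338 between *Zmat3*-/- and wt mice. All exceed 0.1, so blocked values are given. The wt mouse of the same number was the closest match for TKO mice 2 and 3 and *Zmat3*-/- mice 3 and 4. It was not for TKO mouse 1 and *Zmat3*-/- mice 1 and 2, so a pairing by number is not established. The numbers partly follow the *Xist* level.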

Additional observations from a re-analysis of the deposited data

Results flagged for a closer look

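Some genes differed from wt mice in opposite directions within the mice of high and of low *Xist*, with every mutant mouse on one side of every wt mouse in each. The difference between these subsets was not tested, the subsets were defined from the data and not from the labels, and the values are log2FC by edgeR. *Sik2* was at 1.58 in TKO mice of high *Xist* and −0.41 in those of low *Xist*, and at 1.74 and −0.44 in *Zmat3*-/- mice. *Crtc2* was at −0.27 and 0.17 in TKO mice. In *Zmat3*-/- mice *Sik3* was at 0.41 and −0.079, and *Crtc1* at 0.46 and −0.11. The subsets hold 2 wt mice each, 1 and 2 TKO mice, and 2 and 2 *Zmat3*-/- mice. By Dixon's ratio no single mouse stood apart from the other 3 in any of 20 groups of 4 mice, each of the 10 genes in wt and in *Zmat3*-/- mice.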

How the results depend on the processing

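The log2FC of *Sik1* against wt mice, the difference behind the choice of the genes, ran from 2.90 to 3.32 in TKO and from 2.77 to 3.04 in *Zmat3*-/- mice over the alternatives. The counts of listed pathway genes depended on the model. The cause of each difference given here was not tested. In TKO against wt mice 3 were called and 4 passed the adjusted p alone; these counts became 6 and 9 with DESeq2, 5 and 8 with all 11 mice in one fit, 8 and 20 with 1 surrogate variable, 0 and 0 with the replicate block, and with each mouse left out 0 to 3 and 0 to 4. Without a filter on low counts 5 were called. In *Zmat3*-/- against wt mice 4 were called and 6 passed; these became 9 and 42 with 1 surrogate variable, 1 and 1 with the replicate block, and with each mouse left out 2 to 4 and 2 to 6. With DESeq2 18 passed. Over all genes, 1 surrogate variable gave 1.17% called and 14% passed in TKO and 1.59% and 37.7% in *Zmat3*-/- mice. DESeq2 gave 0.777% and 2.87% in TKO and 0.912% and 8.04% in *Zmat3*-/- mice. All 11 mice in one fit gave 0.513% and 1.63% in TKO mice. Of the 10 genes, 2 passed the adjusted p in TKO and 5 in *Zmat3*-/- against wt mice with 1 surrogate variable, beside 1855 of 13260 and 5086 of 13494 genes. The replicate block took the calls over all genes from 32 to 16 in TKO and from 43 to 8 in *Zmat3*-/- against wt mice, and left the counts for the 10 genes as they were.

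Fits within the mice of high or low *Xist* were added after the data were seen, hold 1 TKO mouse of high *Xist* and 2 mice in each other group, and are not read as results. With high *Xist*, 2 of the 10 genes were called in each wt comparison and 4 (TKO) and 8 (*Zmat3*-/-) passed the adjusted p, beside 4.77% and 4.26% of all genes called and 20.2% and 42.1% passed. Of the listed genes 7 and 8 were called and 19 and 38 passed, 7 of the 38 lower. With low *Xist*, 2 of the 10 genes passed in *Zmat3*-/- mice, beside 28.2% of all genes. Of the listed genes 7 (TKO) and 10 (*Zmat3*-/-) were called and 10 and 28 passed, 1 and 8 of them lower. Over all genes 1.07% and 2.64% were called and 3.02% and 28.2% passed in these fits. With DESeq2 1 of the 18 in *Zmat3*-/- mice was lower.

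Between TKO and *Zmat3*-/- mice the counts stayed at 0, except that 1 listed gene passed without a filter on low counts, and 1 was called and 4 passed in the mice of high *Xist*. There the replicate numbers did not pair the mice by the deviations, at correlations of 0.315, −0.044 and 0.229, and the block gave 0 calls among the 10 genes and the listed genes. Among small differences from wt mice the sign changed in TKO mice in 6 of 18 alternatives for *Crtc2*, 4 for *Crem*, 3 for *Sik2*, 2 for *Crtc1* and 1 for *Pde4b*, and in *Zmat3*-/- mice in 3 of 19 for *Sik2* and 1 each for *Sik3*, *Crtc1*, *Crtc2*, *Creb1* and *Pde4b*. Every change of sign below, between the mutants, lay within the interval of the difference. *Pde4b* turned from −0.0025 to 0.0045 with DESeq2, 0.0026 with RLE size factors, 0.015 without a filter, 0.0039 with all mice in one fit, 0.039 with the replicate block and 0.11 with high *Xist*. *Crtc1* turned from −0.012 to 0.0074 without a filter and 0.010 with the block. *Crtc3* turned from 0.034 to −0.086 with 1 surrogate variable and −0.056 with high *Xist*, *Crtc2* from 0.098 to −0.0016 with high *Xist*, and *Sik2* from −0.027 to 0.023 with low *Xist*. With each mouse left out, log2FC ran from −0.12 to 0.033 in *Sik2*, −0.11 to 0.077 in *Crtc1*, −0.13 to 0.14 in *Crtc3* and −0.042 to 0.061 in *Pde4b*. Where a group was left with 1 mouse, that mouse was assumed to vary like the others.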
